A study of Homo sapiens with 12 samples.

Results

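The mRNAs of 8 AU-rich element binding proteins were examined: ZFP36, ZFP36L1, ZFP36L2, ELAVL1, HNRNPD, KHSRP, TIA1 and TIAL1. They were taken by gene symbol from the deposited tables of 12 libraries, on chromosomes 1 to 22 and X, with the transcript model holding the most fragments standing for each gene. All 8 were found, among 26415 gene symbols kept, and all 8 were abundant enough to be tested, among 15668 genes tested.

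An AU-rich element is a stretch of A and U, often built on the core AUUUA, in the 3′ untranslated region (UTR) of many short-lived mRNAs that encode cytokines, growth factors, early response proteins and cell cycle regulators. ZFP36 (tristetraprolin) and its paralogs ZFP36L1 and ZFP36L2 bind UAUUUAU through paired zinc fingers and bring in the deadenylation and decapping machinery. KHSRP and isoforms of HNRNPD (AUF1) also favour decay, ELAVL1 (HuR) mostly stabilises its targets, and TIA1 and TIAL1 mostly hold back translation. ZFP36 proteins are held in check by p38 and MK2 kinases, and the mRNAs of several of these proteins carry AU-rich elements of their own.

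The study used the PC3 prostate adenocarcinoma line and the MG63 osteosarcoma line, both of wild-type genotype per the labels. Each received 10 nM siRNA with Lipofectamine RNAiMAX: a non-targeting siControl, siLARP4A or siLARP4B. Poly(A) RNA was sequenced from cells taken at 72 h. LARP4A (gene symbol LARP4) and LARP4B are La-related RNA binding proteins, and the series addresses what they contribute to the growth and spread of these tumours. Each of the 6 groups had 2 libraries, described in the series design as biological replicates. Each condition is therefore known from 1 line of each tumour type. The sequences and number of siRNAs per target are not given in the sources used here. The p-values rest on the spread between replicate transfected cultures, 2 per group, pooled over the 6 groups of both lines in 1 fit.

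Library totals ran from 16950119 to 24864977 fragments, and the PC3 siLARP4A replicate 1 library was the deepest. That group and MG63 siLARP4B had the least alike replicates, with a chi-square per degree of freedom of 6.47 and 5.21 against 1.65 to 2.63 in the other 4 groups. The epithelial marker EPCAM was at 25.1 FPKM (fragments scaled to the library total and the length of the mRNA) in PC3 siControl and at 0 in MG63 siControl, and the collagen gene COL1A1 was at 2.43 and 744.5 FPKM. The prostate marker KLK2 was at 0 in PC3 siControl. The bone regulator RUNX2 was at 0.159 FPKM in MG63 siControl and 0.260 FPKM in PC3 siControl, and the mesenchymal marker TWIST1 was lower in MG63, at 7.41 against 28.4 FPKM. LARP4 fell from 19.2 to 2.41 FPKM in PC3 and from 8.34 to 2.15 FPKM in MG63 after siLARP4A, and LARP4B fell from 7.10 to 1.31 and from 6.71 to 2.05 FPKM after siLARP4B. In MG63 siLARP4B cells LARP4 rose from 8.34 to 11.1 FPKM (log2 fold change 0.44, SE 0.06, adjusted p = 5.2e-06, edgeR's quasi-likelihood test).

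The 3′ UTRs of the members themselves were searched for the heptamer TATTTAT and the nonamer TTATTTATT, the DNA forms of the motifs that ZFP36 proteins bind. In the longest annotated 3′ UTR, the heptamer occurred 3 times in each of ZFP36, ZFP36L1 and ZFP36L2, 5 times in ELAVL1 and 1 time in each of TIA1 and TIAL1, and 0 times in HNRNPD and KHSRP. The nonamer, which contains the heptamer, occurred 1 time in each of the 3 ZFP36 family mRNAs and in ELAVL1 and in none of the other 4 members. Of the tested genes with an annotated 3′ UTR, 35.7% held a heptamer and 9.47% a nonamer. The 4 members with 3 or more heptamers are shown, because they carry the motif that the first 3 proteins recognise. For each, 29 bases round 1 heptamer are given, the stretch with the most ATTTA cores or the first of those that tied. They are printed 5′ to 3′ on the mRNA strand with heptamers in capitals. All were read from the GRCh38 genome with the GENCODE 29 annotation.
ZFP36 (chr19:39409181-39409209, + strand): aatgggcccttTATTTATgacgactttat
ZFP36L1 (chr14:68788336-68788364, − strand): ttatcaaaacgTATTTATtgccaaactat
ZFP36L2 (chr2:43223448-43223476, − strand): actatttaactTATTTATtatcttgtgaa
ELAVL1 (chr19:7961840-7961868, − strand): tTATTTATaccTATTTATgTATTTATtta

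The ELAVL1 stretch held 3 heptamers within its 29 bases, and each of the other stretches held 1. A match is a description of the letters and does not show that a protein binds there.

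In the siControl libraries, the 8 mRNAs spanned more than an order of magnitude per length. In PC3 the order of the mean levels was KHSRP (165.9 FPKM), HNRNPD (137.4), ELAVL1 (29.2), ZFP36L1 (23.6), ZFP36L2 (22.6), TIAL1 (18.0), TIA1 (14.0) and ZFP36 (6.04). In MG63 it was HNRNPD (146.8 FPKM), KHSRP (76.5), ZFP36L2 (58.1), ELAVL1 (25.2), ZFP36L1 (20.7), TIAL1 (17.8), TIA1 (12.8) and ZFP36 (4.90). No neighbours in either order overlapped in their replicates, although ZFP36L1 and ZFP36L2 lay close in PC3, at 23.3 to 23.9 and 22.60 to 22.61 FPKM. The order depends on the model that stands for a gene: with the shortest model per symbol, TIA1 was at 21.8 FPKM in PC3 and 22.1 FPKM in MG63, above TIAL1 in both and above ZFP36L1 in MG63, and HNRNPD was at 193 FPKM in PC3, above KHSRP. The lines differed in 4 of the 8 members, against 81.8% of all genes tested. ZFP36L2 was lower in PC3, at 22.6 against 58.1 FPKM (log2 fold change −1.52, SE 0.05, adjusted p = 1.2e-17), and KHSRP was 1.94-fold higher in PC3 (0.96, SE 0.05, adjusted p = 7.2e-15). HNRNPD was lower in PC3 by a smaller step (−0.26, SE 0.05, adjusted p = 5e-05), as was TIAL1 (−0.15, SE 0.06, adjusted p = 0.022). The TIAL1 difference was past the threshold in the fit of all 12 libraries. It lost the threshold with no expression filter (−0.13, adjusted p = 0.077) and with the replicate number as a block (−0.15, adjusted p = 0.055). It also lost the threshold without MG63 siControl replicate 2 (−0.15).

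**Figure D1:**
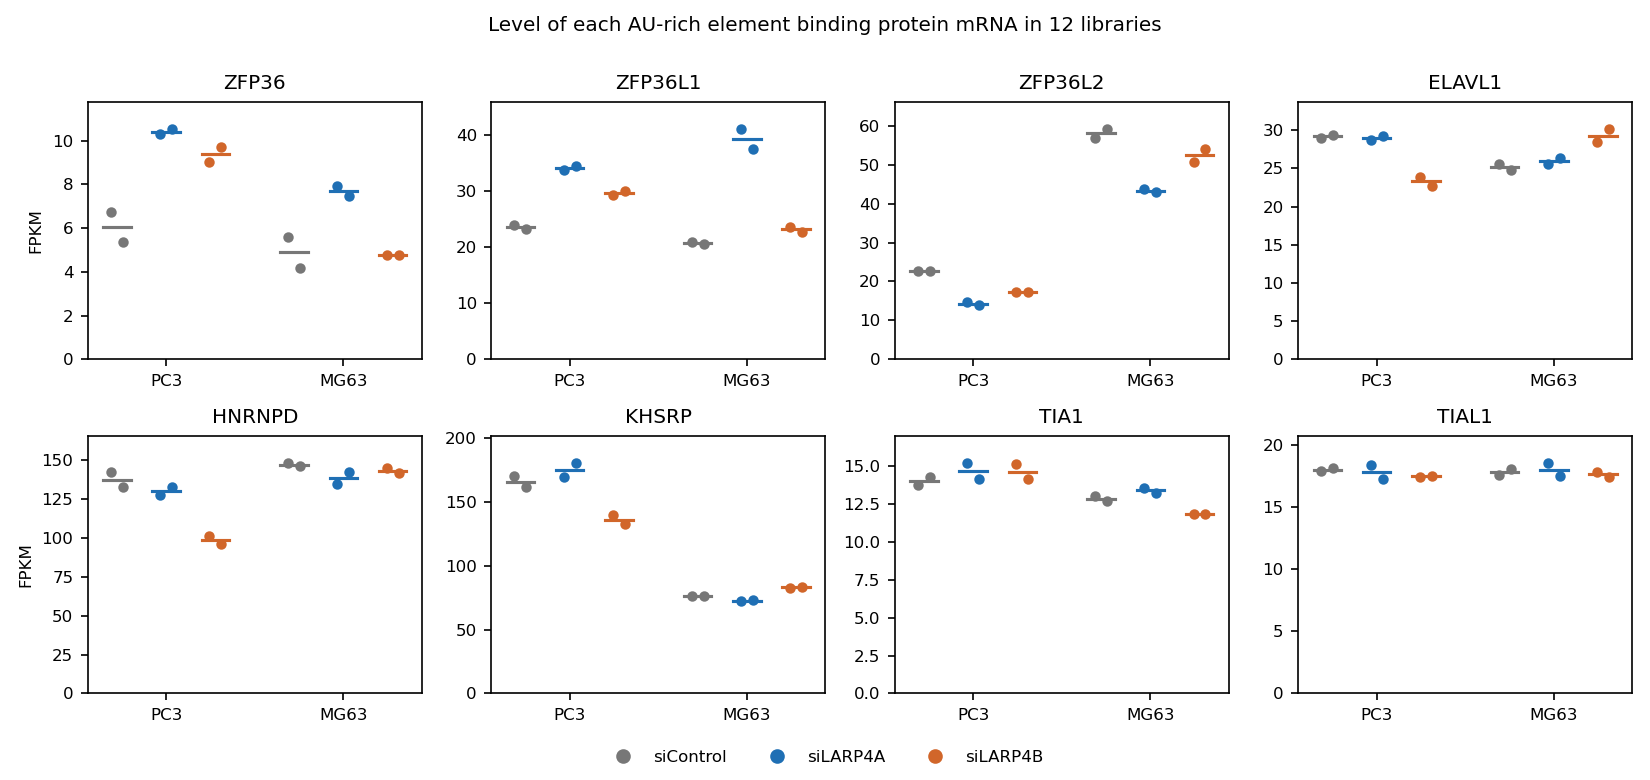
Level in FPKM of each of the 8 mRNAs, 1 point per library and a line at the mean of the 2 libraries of a group. Grey is siControl, blue siLARP4A and orange siLARP4B; ZFP36 and ZFP36L1 are higher and ZFP36L2 lower in both siLARP4A groups, while ELAVL1, HNRNPD and KHSRP are lower in PC3 siLARP4B.

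After siLARP4A, the 3 ZFP36 family mRNAs changed in both lines, and not in 1 direction: ZFP36 and ZFP36L1 rose and ZFP36L2 fell. The other 5 members did not pass the test in either line, except that KHSRP passed in PC3 when siLARP4A replicate 1 was left out (log2 fold change 0.14, adjusted p = 0.034). Thus 3 of 8 members passed in PC3, where 36% of all genes tested did, and 3 of 8 in MG63, where 26.4% did. The share of members is near the background in both lines. The median log2 fold change over the 8 was 0.015 in PC3 and 0.047 in MG63, beside 0.000 and 0.010 over all genes tested.

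ZFP36 (chr19:39406847-39409407, + strand), the family's early response member, was at 6.73 and 5.35 FPKM in PC3 siControl and at 10.31 and 10.53 FPKM in PC3 siLARP4A. In MG63 it was at 5.60 and 4.20 FPKM in siControl and at 7.93 and 7.46 FPKM in siLARP4A. All 4 siLARP4A libraries lay above the siControl libraries of their line. The rise was 1.72-fold in PC3 (log2 fold change 0.78, SE 0.12, adjusted p = 2.5e-05) and 1.59-fold in MG63 (0.67, SE 0.13, adjusted p = 0.00059). These levels rest on 140 to 448 fragments per library, the fewest of any member. The difference between the lines' rises was 0.11 on the log2 scale (95% interval −0.27 to 0.48, adjusted p = 0.80).

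ZFP36L1 (chr14:68787655-68796243, − strand), which the same zinc finger mechanism ties to mRNA decay, was at 23.9 and 23.3 FPKM in PC3 siControl and 33.7 and 34.5 FPKM in PC3 siLARP4A. In MG63 its levels were 20.9 and 20.5 FPKM in siControl and 41.0 and 37.5 FPKM in siLARP4A. The groups were separate in both lines. It rose 1.44-fold in PC3 (log2 fold change 0.52, SE 0.06, adjusted p = 2.5e-07) and 1.92-fold in MG63 (0.94, SE 0.06, adjusted p = 8.5e-11). The rise was smaller in PC3 than in MG63 by 0.42 on the log2 scale (interaction −0.42, SE 0.08, adjusted p = 0.0014). The target LARP4 itself fell further in PC3 than in MG63 with siLARP4A (interaction −1.07, SE 0.10, adjusted p = 5.1e-07). The part of that in the members' differences between the lines was not tested.

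ZFP36L2 (chr2:43222402-43226606, − strand) went the other way. Its PC3 levels were 22.60 and 22.61 FPKM in siControl and 14.7 and 13.9 FPKM in siLARP4A, and its MG63 levels were 57.0 and 59.2 FPKM in siControl and 43.8 and 43.0 FPKM in siLARP4A. Every siLARP4A library was below both siControl libraries of its line. The log2 fold change was −0.67 in PC3 (SE 0.06, adjusted p = 3.7e-09) and −0.40 in MG63 (SE 0.05, adjusted p = 2e-06). The fall was larger in PC3 by 0.27 (interaction −0.27, SE 0.07, adjusted p = 0.021), a difference that lost the threshold when any 1 of PC3 siControl replicate 1, PC3 siControl replicate 2, PC3 siLARP4A replicate 2 or the 4 MG63 siControl and siLARP4A libraries was left out (adjusted p 0.052 to 0.17), with DESeq2 (adjusted p = 0.057) and with the longest model (0.064). ZFP36L1 and ZFP36L2 were thus the 2 members past the interaction test, which 11.4% of all genes tested passed. Without PC3 siLARP4A replicate 1, KHSRP passed it as well (0.21, adjusted p = 0.030).

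Because these values are per length, the 3 paralogs can be added. Their summed level was 53.2 and 51.3 FPKM in PC3 siControl and 58.8 and 58.9 FPKM in PC3 siLARP4A, and 83.5 and 83.8 FPKM in MG63 siControl and 92.7 and 87.9 FPKM in MG63 siLARP4A. The make-up of that sum moved more than its size. ZFP36L2 made up 42.5% and 44.1% of it in PC3 siControl and 25.1% and 23.5% in PC3 siLARP4A. In MG63 its share went from 68.2% and 70.6% to 47.2% and 48.9%. The ratio of ZFP36L1 to ZFP36L2 was 1.06 and 1.03 in PC3 siControl and 2.29 and 2.49 in PC3 siLARP4A, and in MG63 it was 0.367 and 0.346 in siControl and 0.937 and 0.872 in siLARP4A. The ZFP36L2 share and the ratio moved the same way with siLARP4B, by less. There the ZFP36L2 share was 31.1% and 30.2% in PC3 and 64.1% and 66.4% in MG63. The ratio was 1.69 and 1.74 in PC3 siLARP4B and 0.465 and 0.418 in MG63 siLARP4B. The ZFP36 share in MG63 siLARP4B (6.01% and 5.84%) lay between its siControl values (6.7% and 5.01%). The summed level was 55.6 and 56.9 FPKM in PC3 siLARP4B, above siControl. In MG63 siLARP4B it was 79.3 and 81.6 FPKM, below siControl. These shares and ratios are a description, with no test. They are mRNA levels, and the protein levels were not measured in these files.

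**Figure D2:**
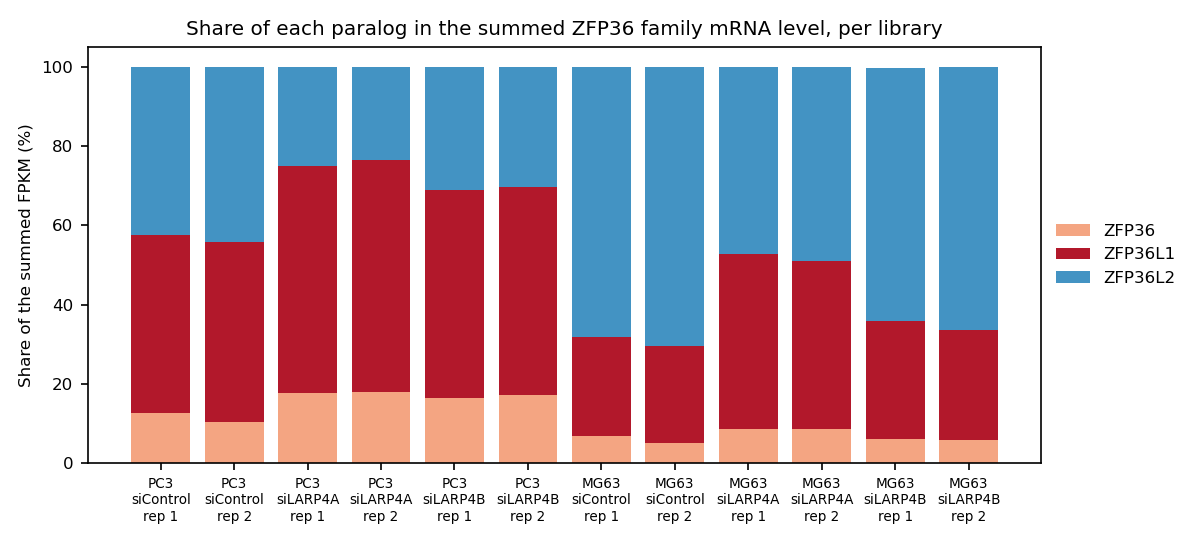
Share in percent of ZFP36, ZFP36L1 and ZFP36L2 in their summed FPKM, 1 stacked bar per library. The ZFP36L2 share falls from 42.5% and 44.1% to 25.1% and 23.5% with siLARP4A in PC3, and from 68.2% and 70.6% to 47.2% and 48.9% in MG63. With siLARP4B it is 31.1% and 30.2% in PC3 and 64.1% and 66.4% in MG63.

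After siLARP4B in PC3, 6 of the 8 members passed the test, where 44.7% of all genes tested did. ZFP36 and ZFP36L1 were higher and ZFP36L2, ELAVL1, HNRNPD and KHSRP lower, and the median over the 8 was −0.205, beside 0.003 over all genes tested. This comparison uses the same PC3 siControl libraries as the one with siLARP4A. ZFP36 was at 9.05 and 9.73 FPKM (log2 fold change 0.60, SE 0.13, adjusted p = 0.00047), ZFP36L1 at 29.2 and 30.0 FPKM (0.29, SE 0.06, adjusted p = 0.00034) and ZFP36L2 at 17.3 and 17.2 FPKM (−0.43, SE 0.06, adjusted p = 1.2e-06). For all 3, neither siLARP4B value fell between the siControl values.

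The mRNAs of 3 nuclear and shuttling proteins, the most abundant of the 8 in PC3, fell in these cells. HNRNPD (chr4:82352498-82373991, − strand), whose protein AUF1 exists in several isoforms, was at 142.5 and 132.4 FPKM in PC3 siControl and at 101.1 and 95.9 FPKM in PC3 siLARP4B (log2 fold change −0.52, SE 0.05, adjusted p = 1.2e-08). ELAVL1 (chr19:7958573-8005641, − strand), the stabilising HuR, went from 28.99 and 29.45 FPKM to 23.9 and 22.8 FPKM (−0.37, SE 0.05, adjusted p = 2.1e-06). KHSRP (chr19:6413102-6424811, − strand), a KH domain decay and splicing factor, went from 170.2 and 161.7 FPKM to 139.9 and 132.9 FPKM (−0.33, SE 0.05, adjusted p = 3.5e-06). In each case both siLARP4B libraries lay below both siControl libraries. In bulk RNA, fewer cells with the mRNA and less mRNA per cell cannot be told apart. The proliferation markers MKI67 and TOP2A moved with these 3: MKI67 was at 19.2 and 21.8 FPKM in PC3 siControl and 7.29 and 7.79 FPKM in PC3 siLARP4B (log2 fold change −1.49, adjusted p = 5.7e-09), and TOP2A at 46.5 and 47.3 against 20.04 and 20.13 FPKM (−1.27, adjusted p = 9.3e-14). Their part in the result was not tested. In PC3 siLARP4A cells MKI67 was at 24.0 and 17.5 FPKM, and none of the 3 passed the test there.

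In MG63, siLARP4B gave 3 calls, all higher, where 35.1% of all genes tested passed: ELAVL1, ZFP36L1 and KHSRP. ELAVL1 was at 25.6 and 24.8 FPKM in siControl and at 28.4 and 30.2 FPKM in siLARP4B (log2 fold change 0.24, SE 0.05, adjusted p = 0.00041). ZFP36L1 was at 23.7 and 22.7 FPKM in siLARP4B (0.19, SE 0.06, adjusted p = 0.016), and KHSRP went from 76.5 and 76.4 FPKM to 82.6 and 83.7 FPKM (0.15, SE 0.05, adjusted p = 0.015). The last 2 lost the threshold when either MG63 siControl library was left out, as did ZFP36L1 without MG63 siLARP4B replicate 1 and KHSRP without MG63 siLARP4B replicate 2 (adjusted p 0.058 to 0.13 over these fits). ZFP36 was at 4.761 and 4.764 FPKM, between its siControl values (log2 fold change −0.01, 95% interval −0.31 to 0.29). ZFP36L2 was at 50.9 and 54.2 FPKM, below both siControl values, and did not pass (−0.12, 95% interval −0.22 to −0.02, adjusted p = 0.064), but passed without MG63 siLARP4B replicate 2 (−0.17, adjusted p = 0.028) and with MG63 fitted alone (−0.13, adjusted p = 0.029). HNRNPD was at 144.7 and 141.5 FPKM against 147.8 and 145.9 FPKM, with a log2 difference of −0.01 (95% interval −0.11 to 0.09). MKI67 was at 18.0 and 27.4 FPKM in MG63 siLARP4B against 25.57 and 25.61 FPKM in siControl, and did not pass (adjusted p = 0.39).

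The effect of siLARP4B therefore differed between the lines for 5 of the 8 members by the interaction test, which 27.9% of all genes tested passed. The target LARP4B itself fell further in PC3 than in MG63 (log2 fold change −2.48 against −1.69, interaction −0.80, adjusted p = 1.5e-05). The part of that in the members' differences was not tested. The PC3 effect minus the MG63 effect was −0.61 for ELAVL1 (SE 0.07, adjusted p = 8.1e-07), −0.51 for HNRNPD (SE 0.07, adjusted p = 7.8e-06), −0.47 for KHSRP (SE 0.06, adjusted p = 9.6e-06) and −0.31 for ZFP36L2 (SE 0.07, adjusted p = 0.0028). ELAVL1 and KHSRP fell in one line and rose in the other. For ZFP36 the difference was 0.60 (SE 0.19, adjusted p = 0.020), and it lost the threshold without PC3 siControl replicate 2, PC3 siLARP4B replicate 2 or MG63 siControl replicate 1 (adjusted p 0.052 to 0.21) and with DESeq2 (0.62, adjusted p = 0.057). The interaction for ZFP36L1 was 0.10 (95% interval −0.08 to 0.27).

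**Figure D3:**
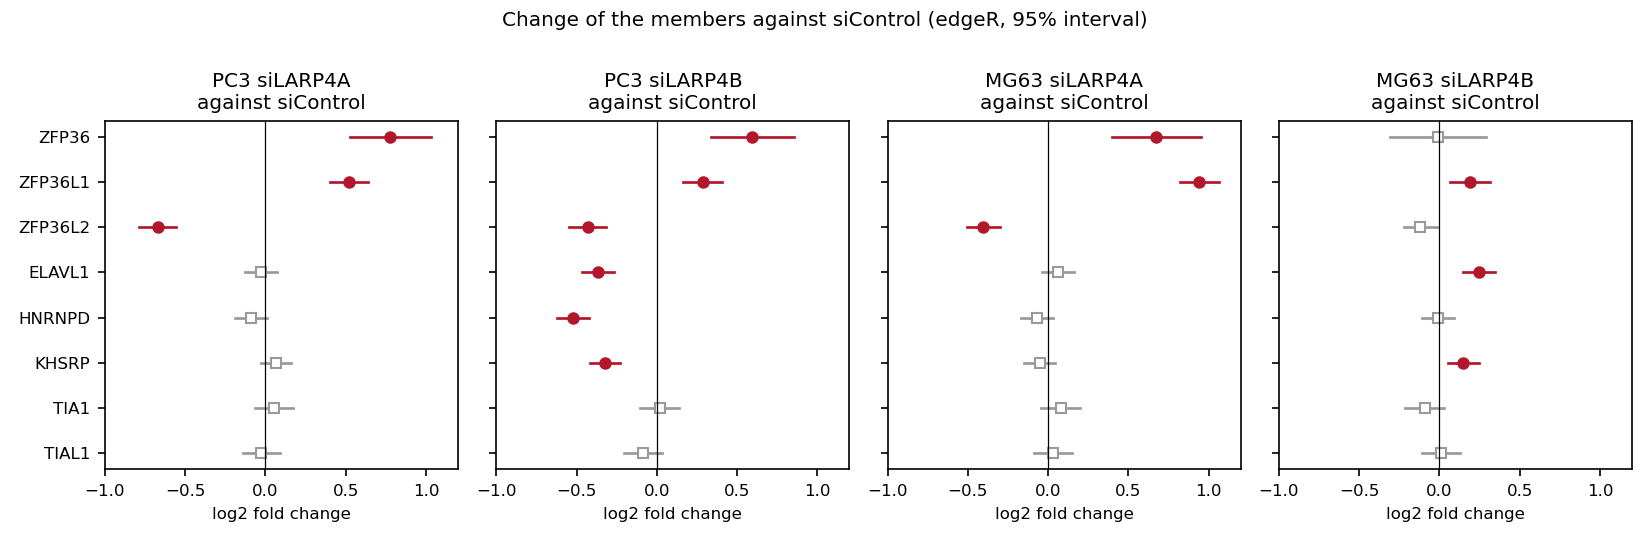
Log2 fold change of each member against siControl from the fit of all 12 libraries, with its 95% interval as a line. Filled red circles are past an adjusted p of 0.05 and open grey squares are not; the ZFP36 family stands away from 0 in both siLARP4A panels, and TIA1 and TIAL1 stay near 0 in all 4 panels.

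TIA1 (chr2:70209444-70248628, − strand) and TIAL1 (chr10:119573466-119597029, − strand), the RNA recognition motif proteins of stress granules, did not pass the test against siControl with either siRNA in either line. TIA1 was at 13.8 and 14.2 FPKM in PC3 siControl, 15.2 and 14.1 in PC3 siLARP4A and 15.1 and 14.1 in PC3 siLARP4B, and these groups overlapped. In MG63 it was at 13.0 and 12.7 FPKM in siControl, 13.5 and 13.2 in siLARP4A and 11.82 and 11.83 in siLARP4B. TIAL1 ranged from 17.2 to 18.5 FPKM over all 12 libraries. Over both genes and 4 comparisons with siControl, the 95% intervals of the log2 fold change lay between −0.22 (TIA1 in MG63 siLARP4B) and 0.20 (TIA1 in MG63 siLARP4A).

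The 2 siRNAs were also set against each other within a line. In PC3, siLARP4A and siLARP4B cells differed in 5 of 8 members (54.2% of all genes tested): HNRNPD, KHSRP, ELAVL1 and ZFP36L1 were higher after siLARP4A by 0.43, 0.39, 0.34 and 0.24 on the log2 scale, and ZFP36L2 lower by 0.24 (log2 difference −0.24, adjusted p = 0.0011). In MG63 they differed in 6 of 8 (43.6% of all genes tested). There ZFP36L1 (0.75, adjusted p = 6.9e-10) and ZFP36 (0.68, adjusted p = 0.00023) were higher after siLARP4A, and ZFP36L2 (−0.28), KHSRP (−0.20) and ELAVL1 (−0.18) lower. ZFP36 was 0.18 higher after siLARP4A in PC3, within its error (SE 0.11, adjusted p = 0.18). The sixth was TIA1 (0.17, adjusted p = 0.024), which lost the threshold when any 1 of the 4 MG63 siRNA libraries was left out (adjusted p 0.067 to 0.13), with DESeq2 (adjusted p = 0.086), with no expression filter (0.061) and with the shortest model (0.24). ELAVL1 lost it without MG63 siLARP4A replicate 1 or MG63 siLARP4B replicate 2 (adjusted p 0.054 and 0.055).

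Several members are listed with more than 1 transcript model, which differ in exons and ends. The ratio to siControl was alike over the 3 models of ZFP36L1 (log2 0.532 to 0.557 in PC3 siLARP4A and 0.922 to 0.931 in MG63 siLARP4A) and over the 4 models of HNRNPD (−0.481 to −0.466 in PC3 siLARP4B). The 3 models of KHSRP gave −0.307 to −0.283 in PC3 siLARP4B. TIA1, with 37 models, ranged from −0.234 to 0.094 in that comparison. A fragment in a shared exon is counted for each model that holds it, so these models are not independent, and isoforms cannot be told apart from these values. A microRNA gene, MIR3940, lies within KHSRP on the same strand, and no other member overlaps another gene symbol in the tables.

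The genes most alike in pattern over the 12 libraries were sought for members past the threshold in at least 2 comparisons with siControl. These members were ZFP36, ZFP36L1, ZFP36L2, ELAVL1 and KHSRP. The search used log2 library-scaled counts after subtraction of each line's mean, among 8411 genes. These r values describe libraries that share siRNA groups, and carry no test. ZFP36L1 was closest to BCL9L (Pearson r = 0.988), MAP3K14, a kinase of the non-canonical NF-kB pathway (0.986), and ATF3, a stress response transcription factor (0.985). ZFP36L2 was closest to HIF1A, the hypoxia response factor subunit (0.986), and CD109 (0.980). HIF1A had log2 fold changes of −0.82 and −0.54 with siLARP4A and siLARP4B in PC3 and −0.47 and −0.02 in MG63. HIF1A overlaps HIF1A-AS1, HIF1A-AS2 and HIF1A-AS3 on the opposite strand. ZFP36 was closest to SLC8B1 (0.943), OSGIN1 (0.941) and S100A11 (0.938). ELAVL1 and KHSRP had DAZAP1, an hnRNP-like RNA binding protein, and PDAP1 among their closest 3 (r = 0.969 and 0.978 with ELAVL1, 0.978 and 0.967 with KHSRP). Their remaining closest genes were PGM2 (0.970) for ELAVL1 and the splicing factor SNRPA1 (0.965) for KHSRP. Among the members, r was 0.889 between ZFP36 and ZFP36L1, −0.903 between ZFP36 and ZFP36L2, 0.928 between ELAVL1 and KHSRP and 0.876 between HNRNPD and KHSRP.

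A list of 28 other RNA binding proteins was drawn up around AU-rich and U-rich binding, but it also holds proteins known for other sequences, such as CELF1. Of the 26 tested, 2 were higher and 15 lower in PC3 siLARP4B, where 21.3% of all genes tested were higher and 23.4% lower. Their median log2 fold change was −0.255. HNRNPA2B1, a splicing and transport factor, was at 229 against 402 FPKM (−0.86, SE 0.04, adjusted p = 7.7e-14), and RC3H2, a Roquin protein of constitutive decay, at 5.47 against 8.45 FPKM (−0.67, adjusted p = 1.9e-07). ZC3H12A (Regnase-1), an endonuclease for inflammatory mRNAs, was higher there (0.57, adjusted p = 0.0002). In MG63 siLARP4B the same list had 9 higher and 4 lower (18.8% and 16.3% of all genes tested), a median of 0.059, and ZC3H12A at 3.43 against 1.70 FPKM (1.04, SE 0.14, adjusted p = 6e-06). There AUH was also higher (0.41, adjusted p = 0.0068) and RC3H2 lower (−0.46, adjusted p = 0.00014).

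With siLARP4A that list had 6 higher and 2 lower in PC3 (17% and 19% of all genes tested) and 4 higher and 3 lower in MG63 (14.5% and 11.9%), with medians of 0.062 and −0.033. CELF1, a binder of GU-rich elements, was higher in PC3 (0.42, adjusted p = 1.4e-06), and the neuronal Hu protein gene ELAVL2 lower (−0.50, adjusted p = 0.0017). ZC3H12A was higher in both lines (0.31, adjusted p = 0.034 in PC3 and 0.45, adjusted p = 0.035 in MG63). The Roquin genes RC3H1 (0.34, adjusted p = 0.020) and RC3H2 (0.22, adjusted p = 0.041) were higher in MG63.

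The decay machinery that ZFP36 proteins recruit showed no common direction. Of 24 tested of 26 genes, siLARP4A gave 5 higher and 7 lower in PC3 and 4 higher and 4 lower in MG63, and siLARP4B gave 5 higher and 9 lower in PC3 and 4 higher and 4 lower in MG63. Of all genes tested, 17% were higher and 19% lower in PC3 siLARP4A, 14.5% and 11.9% in MG63 siLARP4A, 21.3% and 23.4% in PC3 siLARP4B, and 18.8% and 16.3% in MG63 siLARP4B. Medians of the 24 were 0.004, 0.012, −0.100 and 0.039. DCP2, the catalytic decapping enzyme, rose with siLARP4A in PC3 (1.91 to 3.90 FPKM, log2 fold change 1.02, adjusted p = 1.4e-08) and in MG63 (1.42 to 2.10 FPKM, 0.58, adjusted p = 0.00021), and fell with siLARP4B in PC3 (1.91 to 0.996 FPKM, −0.98, adjusted p = 2.7e-07). DCP2 overlaps MCC on the opposite strand, and how strand was counted is not given in the sources used here. TOB1, an adaptor of the CCR4-NOT deadenylase, fell with siLARP4A in both lines (−0.75, adjusted p = 8e-09 in PC3 and −0.51, adjusted p = 7.7e-06 in MG63), while BTG2, an adaptor of the same family, rose (1.14, adjusted p = 0.00021 in PC3 and 1.53, adjusted p = 3.3e-06 in MG63). With siLARP4B, the deadenylase gene CNOT6 fell in PC3 (−0.73, adjusted p = 7e-09) and in MG63 (−0.18, adjusted p = 0.030). The helicase gene DDX6 fell in both as well (−0.61, adjusted p = 4.9e-08 in PC3 and −0.57, adjusted p = 5.8e-07 in MG63), as did the poly(A) nuclease gene PAN3 (−0.43, adjusted p = 0.00011 and −0.47, adjusted p = 3.8e-05). Its partner PAN2 fell in MG63 (−0.61, adjusted p = 4.2e-06) and did not pass in PC3 (−0.02, adjusted p = 0.88). PAN2 and PAN3 overlap CNPY2 and PAN3-AS1.

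Of the kinases, phosphatases and adaptors known to act on ZFP36 proteins, 15 of 16 were tested. Those higher and lower were 5 and 3 in PC3 siLARP4A, 2 and 1 in MG63 siLARP4A, 2 and 5 in PC3 siLARP4B and 4 and 4 in MG63 siLARP4B, with medians of 0.054, 0.011, −0.039 and 0.058. Of all genes tested, 17% (PC3 siLARP4A), 14.5% (MG63 siLARP4A), 21.3% (PC3 siLARP4B) and 18.8% (MG63 siLARP4B) were higher, while 19%, 11.9%, 23.4% and 16.3% were lower. DUSP1, the phosphatase that switches off p38, rose with siLARP4A in PC3 (13.0 to 16.8 FPKM, 0.36, adjusted p = 0.00064) and in MG63 (19.2 to 26.4 FPKM, 0.48, adjusted p = 2e-05). In PC3 the p38 gene MAPK14 also rose with siLARP4A (0.33, adjusted p = 0.00038) and the MK3 gene MAPKAPK3 fell (−0.40, adjusted p = 4.1e-06). MAPKAPK2, the gene of MK2, rose with siLARP4B in PC3 (27.1 to 38.8 FPKM, 0.47, adjusted p = 6.9e-07) and in MG63 (19.3 to 28.5 FPKM, 0.59, adjusted p = 1.2e-07). The 14-3-3 gene YWHAG, whose product binds phosphorylated ZFP36, fell with siLARP4B in PC3 (−0.88, adjusted p = 5.5e-13) and in MG63 (−0.60, adjusted p = 1.4e-09). YWHAQ fell with siLARP4B in PC3 (−0.81, adjusted p = 1.6e-12) and in MG63 (−0.39, adjusted p = 3.9e-07), and YWHAH, which overlaps C22orf24, rose with siLARP4A in MG63 (0.18, adjusted p = 0.014).

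A list of 54 mRNAs long known to carry AU-rich elements was then examined, of which 50 were tested and 40 of those held a heptamer in the longest annotated 3′ UTR. With siLARP4A, 22 were higher and 9 lower in PC3 (17% and 19% of all genes tested), and 22 higher and 3 lower in MG63 (14.5% and 11.9%). The median log2 fold change was 0.222 in PC3 and 0.327 in MG63, beside 0.000 and 0.010 over all genes tested. CSF2, CSF3, IL6 and SERPINB2 had a group listed at 0 in MG63, and the MG63 median was 0.317 with those 4 set to no change. The lines share no libraries: 13 genes were higher in both, 59.1% of the 22 in PC3 and 59.1% of the 22 in MG63, and 2, HIF1A and SLC2A1, were lower in both. Among all genes tested, 1191 were higher in both, 44.7% of the 2662 in PC3 and 52.5% of the 2267 in MG63. EGR1, CXCL8 and THBS1 went in opposite directions. Among all genes tested, 1116 were lower in both lines, of 2981 in PC3 and 1871 in MG63, and 187 went in opposite directions. DUSP1 and BTG2 stand in this list and in 1 of the lists above. Some genes of this list, HIF1A, IL6 and PLAU among them, overlap other genes on the opposite strand.

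Among the largest changes with siLARP4A were those of BIRC3, an inhibitor of apoptosis, which went from 1.25 to 4.28 FPKM in MG63 (log2 fold change 1.79, SE 0.10, adjusted p = 4.1e-11), and of CSF1, the macrophage growth factor, from 1.40 to 3.30 FPKM in PC3 (1.23, SE 0.12, adjusted p = 4.1e-08). SERPINB2, a plasminogen activator inhibitor, rose in PC3 (1.03 to 2.56 FPKM, 1.29, adjusted p = 0.00016), and ICAM1, a leukocyte adhesion molecule, in MG63 (1.47 to 3.26 FPKM, 1.17, adjusted p = 1.2e-06). EGR1, an early response transcription factor, fell in PC3 (6.29 to 2.81 FPKM, −1.21, adjusted p = 2.1e-05). Motif stretches are shown for CSF1 and ICAM1 and for DUSP1, BTG2 and CXCL1, as examples of changed mRNAs that hold a heptamer, printed as above with heptamers in capitals.
CSF1 (chr1:109929055-109929083, + strand): catgctgccacTATTTATtgtgagccctg
ICAM1 (chr19:10285776-10285804, + strand): ttgatgatatgTATTTATtcatttgttat
DUSP1 (chr5:172768643-172768671, − strand): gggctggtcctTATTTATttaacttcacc
BTG2 (chr1:203307528-203307556, + strand): aaatgaagagcTATTTATatatattattt
CXCL1 (chr4:73870670-73870698, + strand): gagaagtcttcTATTTATTTATTTATtca

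The CXCL1 stretch holds overlapping copies of the heptamer. CXCL1 encodes a chemokine for neutrophils, and with siLARP4B it rose in MG63 from 9.77 to 19.3 FPKM (log2 fold change 1.01, SE 0.12, adjusted p = 1e-06). In PC3 it did not pass with siLARP4B (−0.13, adjusted p = 0.32). With siLARP4A it fell in PC3, from 31.07 and 28.95 FPKM to 14.21 and 14.58 FPKM (−1.07, adjusted p = 5.6e-08), and did not pass in MG63 (−0.18, adjusted p = 0.39).

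With siLARP4B the list split more evenly: 14 higher and 12 lower in PC3 (21.3% and 23.4% of all genes tested) and 9 higher and 11 lower in MG63 (18.8% and 16.3%), with medians of 0.036 and −0.016. Of the 14 and 9 higher, 2 were higher in both lines (CXCL3 and PLAU, 14.3% and 22.2% of each list), and among all genes tested 1174 were, 35.2% of the 3336 in PC3 and 39.8% of the 2949 in MG63. Of the 12 and 11 lower, 5 were lower in both lines, E2F1, EGR1 and THBS1 among them, and 2 genes went in opposite directions. Among all genes tested, 1392 were lower in both, of 3661 in PC3 and 2548 in MG63, and 553 went in opposite directions. E2F1, a cell cycle transcription factor, fell in PC3 (20.5 to 8.46 FPKM, −1.31, SE 0.09, adjusted p = 3.8e-11). ICAM1 (4.75 to 10.7 FPKM, 1.13, adjusted p = 2.1e-09) and BTG2 (0.683 to 1.5 FPKM, 1.09, adjusted p = 0.0003) rose there. In MG63, IL1B (4.72 to 2.38 FPKM, −0.96, adjusted p = 5e-05) and THBS1 (6.16 to 3.28 FPKM, −0.88, adjusted p = 1.2e-06) fell.

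**Figure D4:**
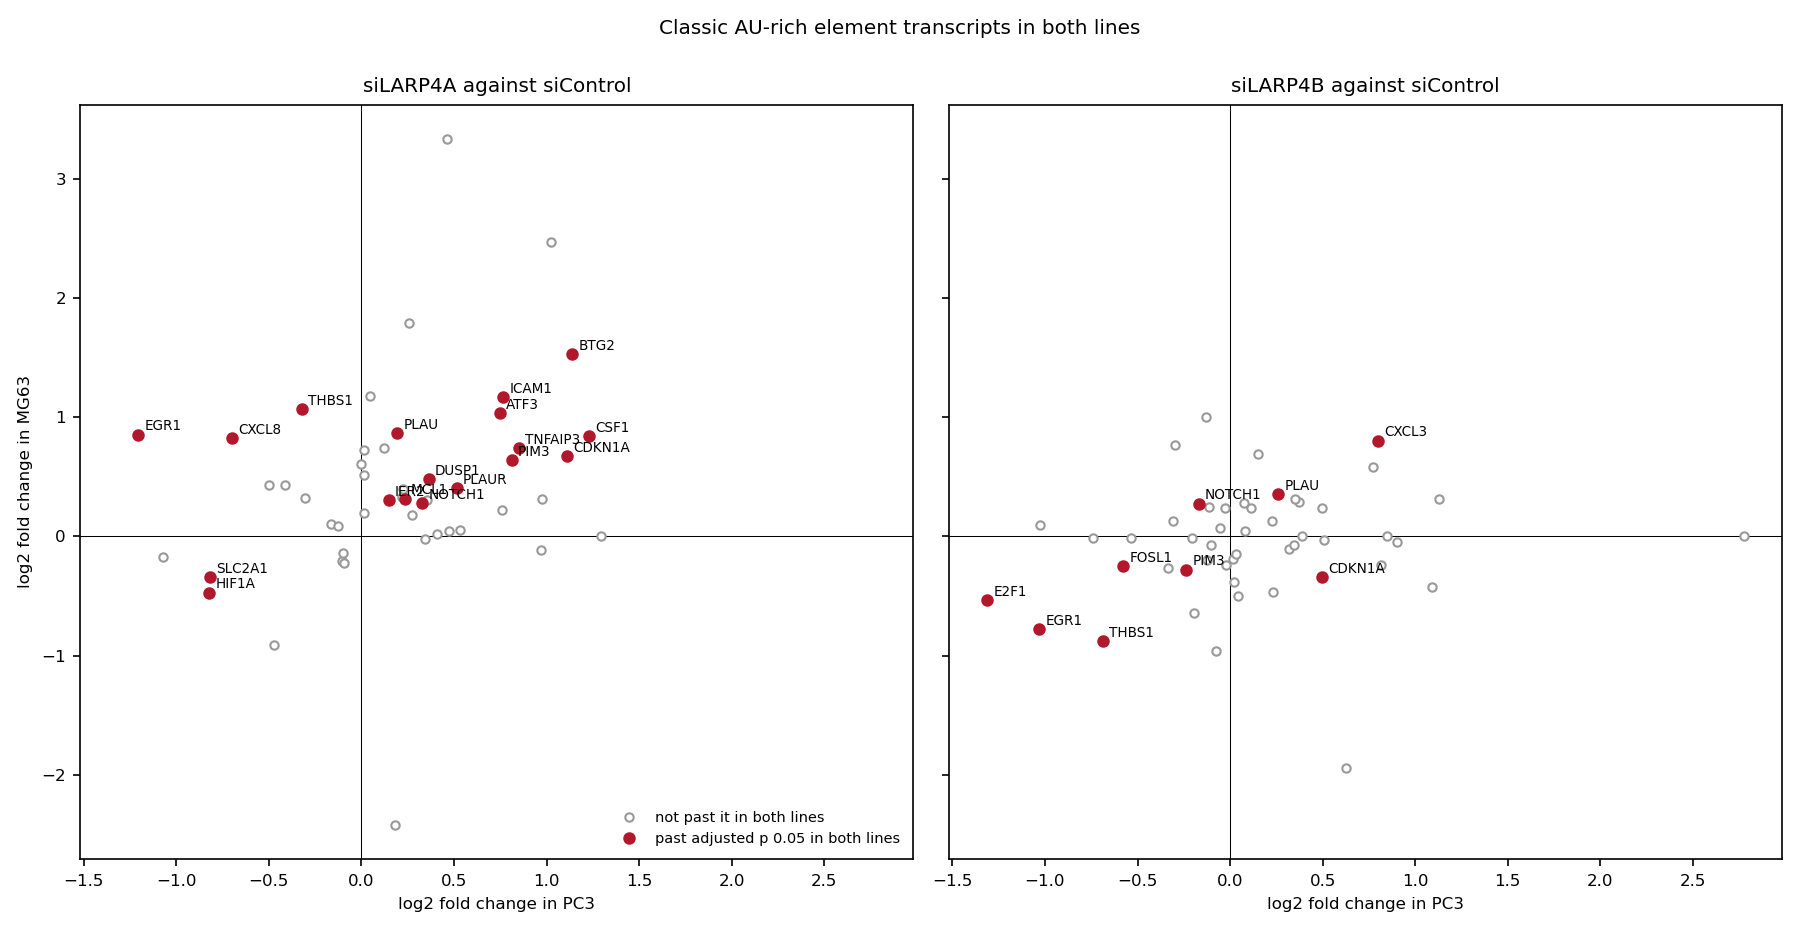
Log2 fold change in PC3 (x axis) and MG63 (y axis) of 50 mRNAs known to carry AU-rich elements, for siLARP4A (left) and siLARP4B (right). Filled red points are past an adjusted p of 0.05 in both lines and named. With siLARP4A 13 of them are higher and 2 lower in both lines, and with siLARP4B 2 are higher and 5 lower in both.

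All tested genes with an annotated 3′ UTR, 13585 of 15668 (86.7%), were next sorted by how many heptamers the longest one holds: 8729 had none, 2768 had 1, 1126 had 2 and 962 had 3 or more. In MG63 siLARP4A, 13.8% of genes with none were higher and 13.1% lower, and of those with 3 or more, 23.4% were higher and 11.3% lower. The median log2 fold change went from 0.000 with none to 0.031, 0.069 and 0.078 with 1, 2 and 3 or more. In PC3 siLARP4A, the shares higher and lower were 15.9% and 21.9% with none and 26.3% and 20.3% with 3 or more, and the medians went from −0.018 to 0.063.

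The difference in median between genes with 3 or more heptamers and genes with none was taken in each library against the mean of its siControl libraries. It was 0.090 and 0.050 in the MG63 siLARP4A libraries, and 0.145 and 0.001 in the PC3 siLARP4A libraries. In PC3 it therefore came from replicate 1, the deepest library, and without that library it was 0.007. In MG63 it was 0.040 without siLARP4A replicate 1 and 0.078 with all libraries. No test was made over genes, which are not replicates.

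In PC3 siLARP4B the direction was the opposite: 23.6% of genes with no heptamer were higher and 23.1% lower, and 17.2% and 33.9% of those with 3 or more. The difference in median was −0.129 and −0.084 in its libraries. In MG63 siLARP4B it was −0.038 and 0.038, so no direction was shared by its replicates. Length moved with the number of heptamers, from a median 3′ UTR of 927 bases with none to 4430 bases with 3 or more. Among 3′ UTRs of at least 1000 and under 3000 bases, the shares higher and lower were 18.4% and 12% with none and 22% and 12.8% with 2 or more in MG63 siLARP4A, and 26.4% and 22.8% against 19.5% and 31.2% in PC3 siLARP4B. The median lengths in that stratum still differed, at 1636 and 2096 bases. The part of UTR length in these shares beyond that split was not tested.

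**Figure D5:**
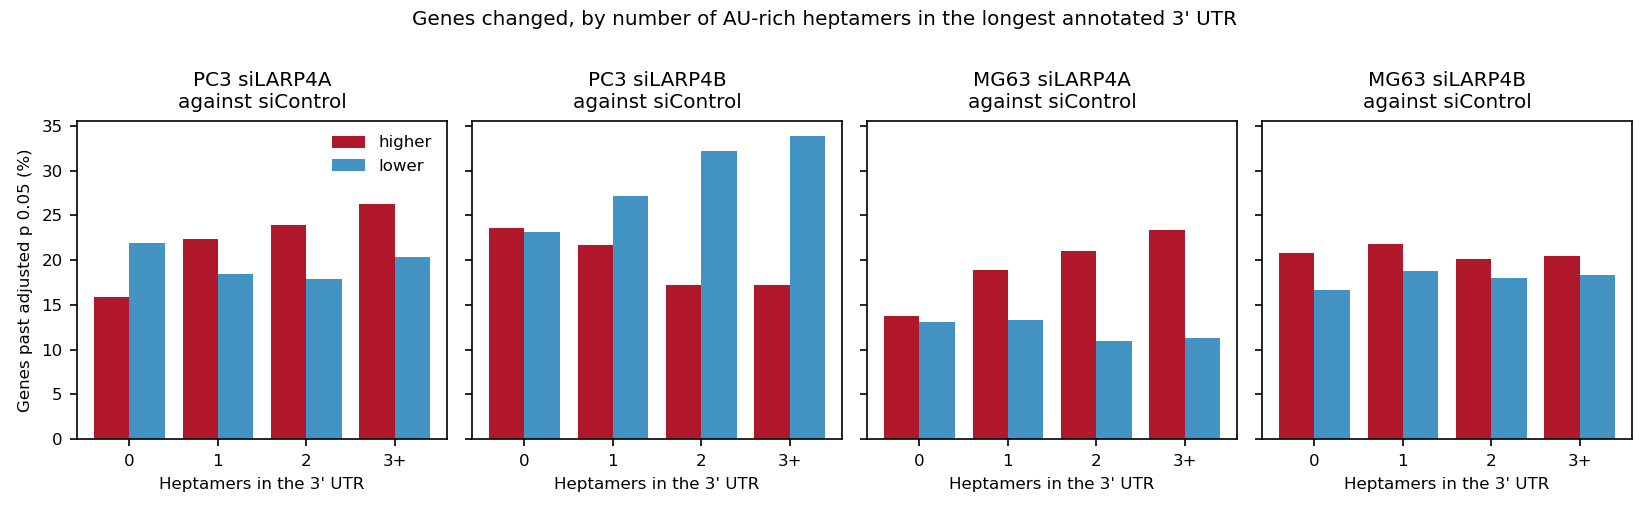
Percent of tested genes higher (red) and lower (blue) at an adjusted p of 0.05, by number of TATTTAT heptamers in the longest annotated 3′ UTR, in 4 comparisons with siControl. In MG63 siLARP4A the share higher goes from 13.8% to 23.4%, in PC3 siLARP4B the share lower goes from 23.1% to 33.9%, and the PC3 siLARP4A pattern rests on replicate 1.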

How the data were processed

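RNA sequencing of 12 libraries, 2 in each of 6 groups taken from the sample labels, was used. Per the submitters' processing notes, HISAT2, featureCounts, edgeR and build hg38 were named, without roles. The authors deposited 1 table per library with a whole fragment count, an FPM and an FPKM for each of 86394 transcript models, per the file headers. The deposited FPKM equals FPM per kilobase of model, and FPM equals the count over 1 total per library (16950119 to 24864977), which was checked. Strand handling is not given in the sources used here. A deduplicated table exists for PC3 siControl replicate 2 and served as an alternative. In 3 tables, 1 unheaded column was not used.

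Each symbol was represented by the model with the most fragments, and 1748 symbols at more than 1 locus were left out. The test was edgeR 4.0.16 (R 4.3.3) on the counts (quasi-likelihood F-test, two-sided, TMM scaling, default expression filter, 1 mean per group over all 12 libraries), for 15668 genes, with Benjamini-Hochberg adjustment within each of 9 comparisons and a threshold of 0.05. Adjusted p values and SEs come from that fit except where a sentence says otherwise. The biological coefficient of variation was 4.21%. Comparisons of both siRNAs within a line share siControl libraries. Alternatives were DESeq2 1.42.0, its size factors, no filter, the longest or shortest model, the deduplicated table, 1 line alone, a replicate block and leaving out each library.

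The members, the gene lists and the tests were chosen with earlier results of these data known. Named genes are the members, the targeted genes, up to 3 genes per list and comparison with the largest change past the threshold (mean FPKM 1 or more in one of the groups), and, for members past it in at least 2 comparisons with siControl, the 3 genes most like them on log2 counts per library total (TMM, prior count 2) less the line mean (mean FPKM 5 or more). MKI67, TOP2A, a few genes that counts single out (HIF1A, SLC2A1, CXCL8, CXCL3, PLAU) and the genes used to check the lines were named beyond that rule after their values were seen. The 3′ UTRs came from GENCODE 29. Of the listed genes, CNOT3, PARN, YWHAE, TNF and IER3 were left out for several loci, and ELAVL4, CCL20 and IFNB1 for low counts. ZFP36L3, from the list of 28 other RNA binding proteins, was not among the gene symbols. Some genes and a sequence that the rule for named genes would name are not reported here.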

Additional observations from a re-analysis of the deposited data

Results flagged for a closer look

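For 7 results the effect of an siRNA differed between the lines by the interaction test of edgeR, given here as the log2 fold change in PC3 minus that in MG63. With siLARP4A the difference was −0.42 for ZFP36L1, which rose in both lines and by more in MG63, and −0.27 for ZFP36L2, which fell in both lines and by more in PC3. With siLARP4B it was 0.60 for ZFP36, −0.31 for ZFP36L2, −0.61 for ELAVL1, −0.51 for HNRNPD and −0.47 for KHSRP. The differences for ZFP36L2 with siLARP4A and for ZFP36 with siLARP4B lost the threshold with DESeq2 and in several fits without 1 library, as given above. The targets also fell further in PC3 than in MG63, by −1.07 for LARP4 with siLARP4A and −0.80 for LARP4B with siLARP4B. The part of that in the 7 results was not tested. Groups of 2 libraries are too small to test for a library that stands apart.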

How the results depend on the processing

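No log2 fold change of a member reversed its direction while past the threshold under any alternative run. The count of members past the threshold with siLARP4B in MG63 was 3 and ranged from 1 to 3 when 1 library was left out. The count for the siLARP4A interaction was 2. It was 1 (ZFP36L1) with DESeq2 and 1 with the longest model per symbol, and ranged from 1 to 3 when 1 library was left out. The longest model also moved the share of higher calls among all genes in that interaction from 36% to 51.7%. That share was 41.4% with DESeq2 and 43% with its size factors in edgeR. It also rose when any PC3 siControl or siLARP4A library was left out. In the siLARP4B interaction the share was 37%, with 46.3% for the longest model, 41.5% for the size factors and 35.7% for DESeq2. Replicate numbers did not pair the libraries: deviations of same-numbered libraries correlated at −0.060 to 0.068 over 8411 genes. With the replicate number as a block, 3, 6, 3 and 3 members passed in PC3 siLARP4A, PC3 siLARP4B, MG63 siLARP4A and MG63 siLARP4B, as without it, and in siControl 3 members differed between lines, with TIAL1 lost (log2 difference −0.15, adjusted p = 0.055).

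The difference in median between 3 or more heptamers and none was −0.109 in PC3 siLARP4B and −0.063 with no expression filter. Over fits that left out 1 library it was 0.040 to 0.087 in MG63 siLARP4A, and −0.045 to 0.025 in MG63 siLARP4B, whose value with all libraries was −0.009 and whose sign turned without MG63 siLARP4B replicate 1. The cause was not tested. With 140 to 448 fragments per library, ZFP36 had the widest intervals. With the shortest model, chosen after the tables were seen, the level of several members moved, as with HNRNPD in PC3 siControl from 137.4 to 193 FPKM.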
